A study of Mus musculus with 22 samples.

Results

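The Hox cluster genes are the 39 members of the Hoxa, Hoxb, Hoxc and Hoxd clusters whose symbols consist of Hox, a cluster letter and a paralog number. They were taken by symbol from the 26202 gene symbols measured in mouse tracheas, without reference to any value, and all 39 were found. Hox genes encode homeodomain transcription factors that give cells their position along the head-to-tail axis. The genes lie in each cluster in the order in which they are used along that axis, with low paralog numbers used towards the head and high numbers towards the tail. Hox proteins bind DNA together with Pbx and Meis cofactors. The group 5 genes Hoxa5, Hoxb5 and Hoxc5 are known in airway development, and loss of Hoxa5 in mice disturbs the trachea and lung.

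Bulk RNA was sequenced from whole E11.5 tracheas and from sorted E13.5 tracheal cells, and 5 tracheas were pooled per sample. At E11.5 the 5 control libraries came from Wnt5a f/f embryos and the 4 mutant libraries from Dermo1Cre; Wnt5a f/f embryos. Dermo1Cre recombines in the mesenchyme, so the epithelium of these tracheas kept its Wnt5a alleles. At E13.5 the control populations were the EpCAM-positive epithelium, the muscle marked by γSMAeGFP, and the chondroblasts, which are the cells negative for both and are therefore defined by exclusion. The labels list 3 samples of each control population and 4 Notum mutants, but 2 and 3 columns could be matched to these groups and only these were used. The column names of the 2 libraries of a population carry different dates. The labels give sorted controls of Bmp4 f/f; γSMAeGFP and of Notum 300/300; γSMAeGFP genotype, and which library has which genotype cannot be told from the columns. The 3 mutant chondroblast libraries came from Notum 150/150; γSMAeGFP embryos, which lack functional Notum, a secreted enzyme that inactivates Wnt ligands, and all carry the later date. E11.5 libraries are named here by the number in their columns, sorted controls as earlier or later by date, and Notum mutants by letter. Levels are CPM, counts relative to the library total, with TMM scaling (the usual factor for differences in composition), and all errors in levels are SD between libraries. The study's methods pool the sorted tracheas by litter, and nothing says how the pools of the E11.5 libraries relate to each other, so p-values measure the spread between these libraries.

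In the GRCm38 annotation the Hoxa cluster lies on chromosome 6 between positions 52155590 and 52260880 on the minus strand with 11 members. The Hoxb cluster lies on chromosome 11 between 96194316 and 96368256 with 10 members. The Hoxc cluster (chromosome 15, 102921103 to 103036852) and the Hoxd cluster (chromosome 2, 74668310 to 74765142) hold 9 members each, and these 3 clusters are on the plus strand. Exons of 9 members overlap another annotated gene on the same strand and exons of 10 members overlap one on the opposite strand, while 23 have no overlap. The overlap reaches 62.8% of the annotated exon bases of Hoxd3, which shares them with Hoxd4 and 3 further transcripts, and 52.9% of those of Hoxb3, which lies opposite Hoxb3os. The kit used to amplify the RNA does not mark strand, so reads from shared bases could be assigned to either gene. How the counting treated such reads is not given in the sources used here.

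Library totals ran from 6880660 counts in control 16 to 21678177 in the earlier chondroblasts. Control 16 also stood apart in the number of symbols at 1 CPM or more, 17370 against 13825 to 15434 in the other E11.5 libraries. Gene-level Wnt5a was 62.1 to 159 CPM in E11.5 controls and 46.3 to 126 CPM in the libraries labelled Wnt5a mutant, with a log2 fold change of -0.20 ± 0.30 (SE) and an edgeR adjusted p of 0.9996. Notum was 13.7 and 86.0 CPM in control chondroblasts and 13.7 to 35.3 CPM in the libraries labelled Notum mutant (log2 fold change -0.85 ± 0.75, edgeR adjusted p = 0.670). These whole-gene counts include exons outside the deleted or altered part, so they do not check the labels. The summed smooth muscle markers were 10554 and 13710 CPM in muscle against at most 96.7 CPM in the other sorted libraries, and the summed epithelial markers were 2647 and 3144 CPM in epithelium against at most 45.1 CPM. The summed cartilage markers were 2055 and 2114 CPM in control chondroblasts, and 650 and 1519 CPM in muscle. Several libraries carried markers of other cells. Globin and Ptprc counts summed to 33694 CPM in the earlier chondroblasts and 1435 CPM in the later. The skeletal muscle gene Myog stood at 453 CPM in the earlier muscle and 33.4 CPM in the later. The thyroid gene Pax8 stood at 78.1 CPM in the earlier epithelium and 2.08 CPM in the later, and Foxe1 at 5.61 and 0 CPM. The thyroid gene Tg did not differ in this way, at 12.8 CPM in the earlier and 15.2 CPM in the later epithelium.

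Hox expression in the trachea was concentrated in the low paralog numbers. Paralogs 1 to 5 held most Hox counts in every library, and the level dropped after paralog 5 in the clusters A, B and C and after paralog 3 in cluster D. In E11.5 controls, the members at 1 CPM or more in every library included Hoxa2 to Hoxa5, Hoxb2 to Hoxb5, Hoxc4, Hoxc5 and Hoxd3, and the same list held in the Wnt5a mutants. In the E13.5 control chondroblasts the list included Hoxa2 to Hoxa5, Hoxb2 to Hoxb5 and Hoxd3, in muscle it was Hoxa2 to Hoxa5 and Hoxb2 to Hoxb5, and in epithelium it was Hoxa2, Hoxa3, Hoxa5 and Hoxb2 to Hoxb5. Only 7 members, Hoxa2, Hoxa3, Hoxa5 and Hoxb2 to Hoxb5, reached 1 CPM in all 18 libraries.

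**Figure D1:**
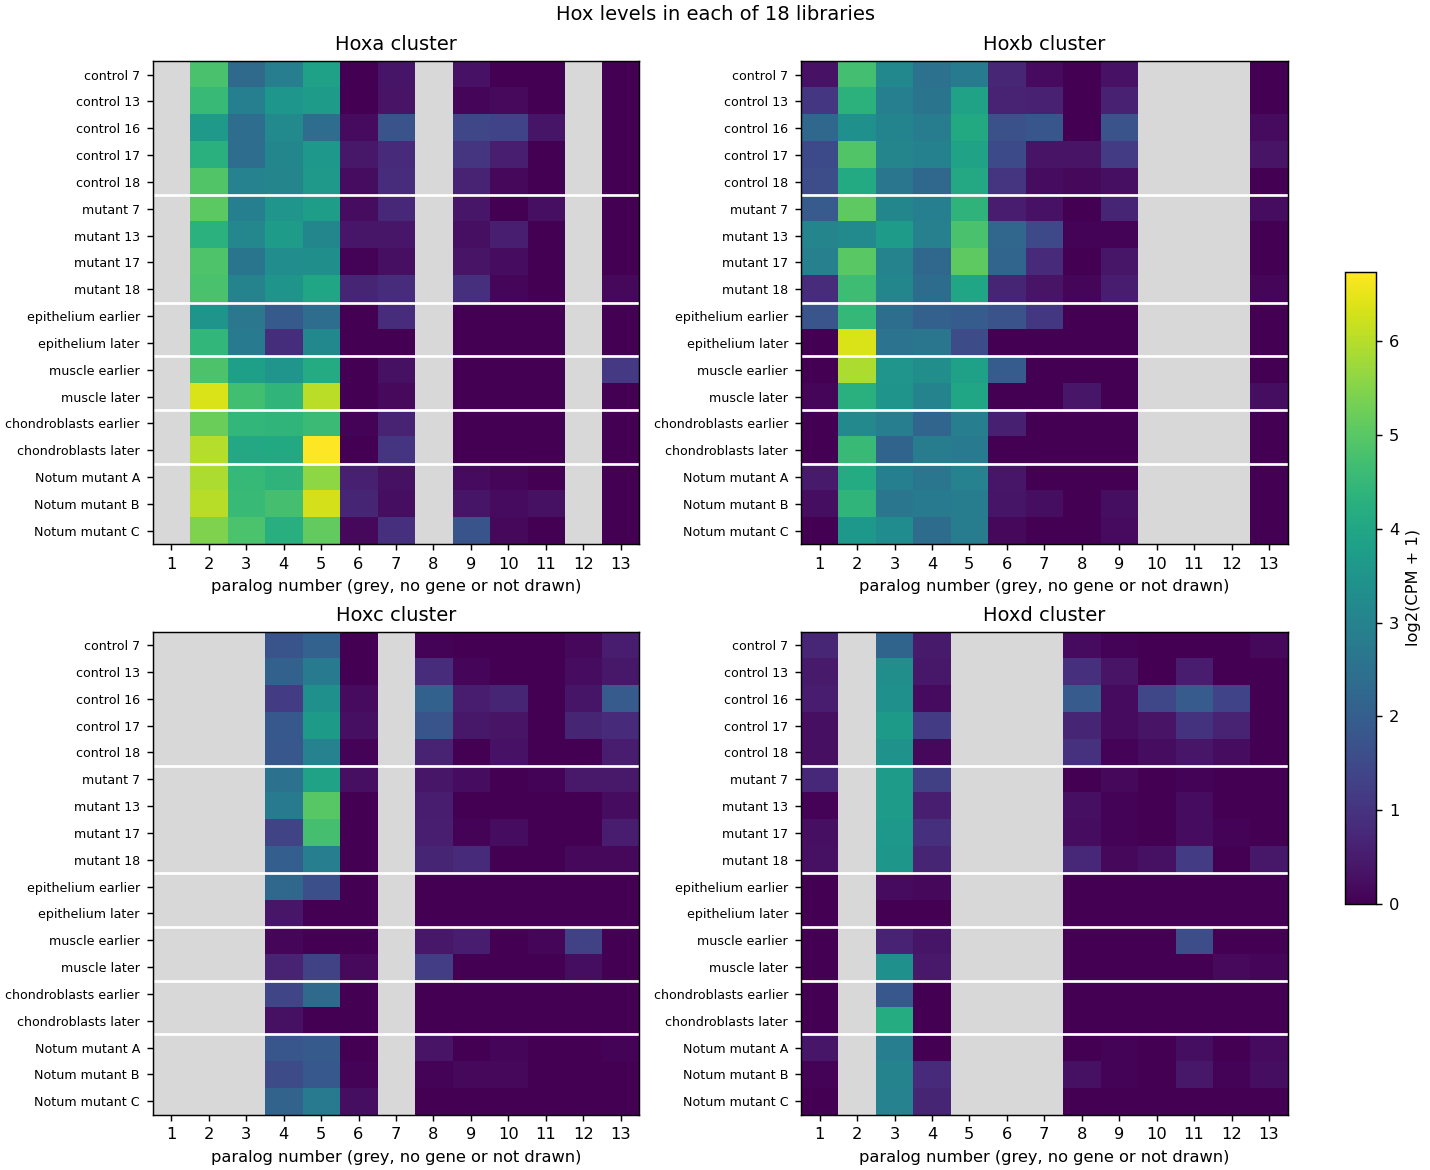
Level of Hox genes in each of 18 libraries as log2(CPM + 1), with 1 panel per cluster, paralog number on the x axis, libraries on the y axis and white lines between groups. The bright columns end at paralog 5 in clusters A, B and C and at paralog 3 in cluster D, and control 16 shows weak signal at higher numbers.

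In E11.5 controls the 39 members summed to 128 ± 12.1 CPM (n = 5), of which paralogs 1 to 3 made up 54.3% ± 9.15 and paralogs 4 to 5 36.9% ± 2.87. Paralogs 9 to 13 made up 4.46% ± 5.02 of Hox counts, and this mean was set by 1 library. Their summed level was 16.5 CPM in control 16, 7.03 CPM in control 17 and 1.20, 2.03 and 2.29 CPM in controls 7, 13 and 18. Without control 16 the mean of 5.81 ± 6.39 CPM became 3.14 ± 2.64 CPM. Control 16 had 12 members of paralogs 6 to 13 at 1 CPM or more, control 17 had 4, and the other E11.5 libraries had 0 to 2. The summed level of paralogs 9 to 13 was thus highest in the library that is shallowest and has the most symbols at 1 CPM, and the part of depth and breadth in it was not tested. At E13.5 no count of paralogs 9 to 13 fell in either epithelium or either control chondroblast library, and a floor of 3 counts is 0.144 to 0.224 CPM per gene in these 4 libraries. The earlier muscle library had 5.17 CPM of paralogs 9 to 13, from Hoxa13, Hoxc9, Hoxc11, Hoxc12 and Hoxd11, the later 0.567 CPM, and the Notum mutants 0.728 to 2.63 CPM.

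**Figure D2:**
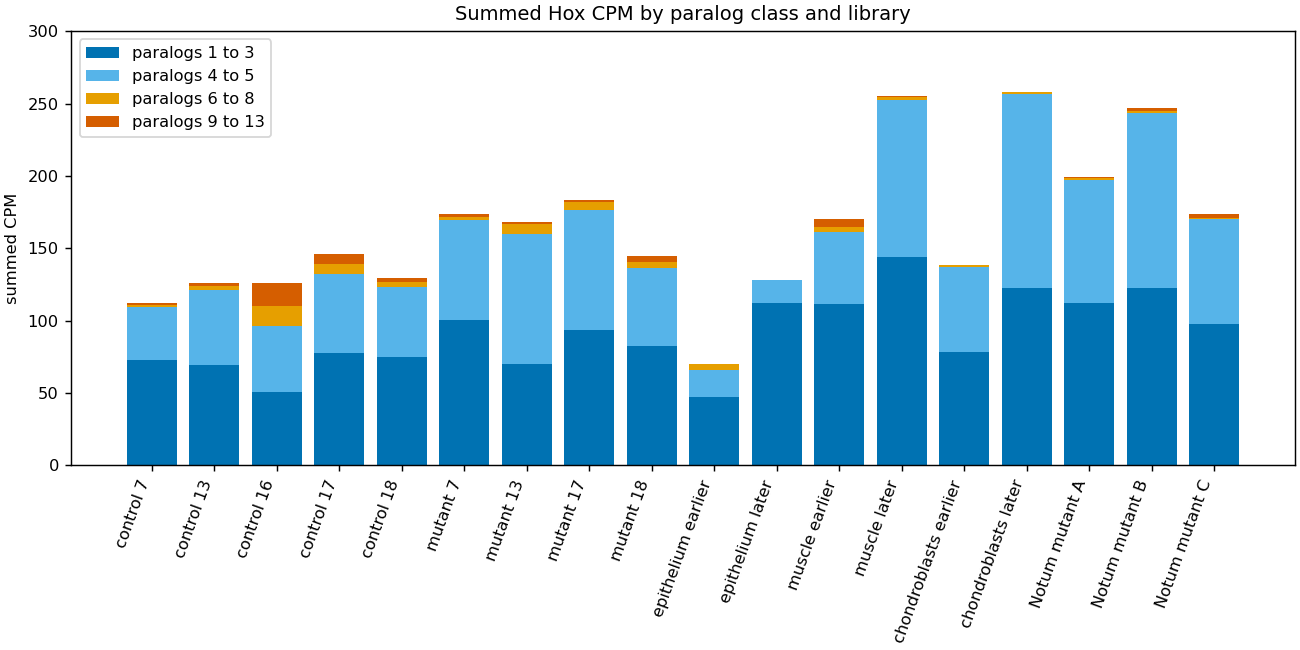
Summed CPM of the Hox genes in each library as stacked bars, split into paralogs 1 to 3, 4 to 5, 6 to 8 and 9 to 13. Paralogs 1 to 5 fill most of the bar in every library, and the largest sum of paralogs 9 to 13 is the 16.5 CPM of control 16.

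The clusters contributed unequally. In E11.5 controls, cluster A made up 41.4% ± 8.53 of Hox counts, cluster B 39.0% ± 3.17, cluster C 9.97% ± 3.64 and cluster D 9.70% ± 3.83. In control chondroblasts cluster A made up 76.0% and 78.6% and cluster B 18.05% and 14.8% in the earlier and later library. In epithelium cluster B led with 53.4% and 71.96%, against 37.7% and 27.8% for cluster A. In muscle the leading cluster differed between the dates, with cluster B at 55.7% in the earlier and cluster A at 74.6% in the later library.

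Per kilobase of the longest coding transcript, the only scale on which genes are compared with each other here, Hoxa2 and Hoxb2 stood highest in E11.5 controls, each at 12.2 CPM per kb (SD 3.93 and 4.78). Hoxb5 followed at 6.89 ± 2.16, Hoxa5 at 5.62 ± 1.91, Hoxa4 at 5.05 ± 0.986 and Hoxd3 at 2.94 ± 1.04 CPM per kb. Hoxa2 and Hoxb2 did not differ beyond their spread, and neither did Hoxb5, Hoxa5 and Hoxa4. In chondroblasts Hoxa5 (34.3 ± 31.2 CPM per kb) and Hoxa2 (28.0 ± 10.6) led and were not separated by their spread. In epithelium Hoxb2 led at 31.2 ± 25.6 CPM per kb before Hoxa2 at 8.81 ± 4.30. Hoxb2 was higher than Hoxa2 in both libraries, at 13.1 against 5.78 CPM per kb in the earlier and 49.3 against 11.85 in the later.

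By level or by the tests below, 11 members are described one by one, and Hoxb6 and Hoxc4 are added where they bear on these. The other 28 stayed at or below 5.85 CPM in every library, and 22 of them had no group mean of 1 CPM. Genes were called at an adjusted p under 0.05, or at the study's own thresholds, a fold change over 1.5 with an unadjusted p under 0.05. All tests are edgeR's quasi-likelihood test fitted on the whole table. The control chondroblasts enter 4 of the 5 comparisons and the E11.5 controls 2, so these comparisons are not independent of each other. A change in bulk RNA can come from fewer cells of a type or from less RNA per cell, and these cannot be told apart.

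The first question was whether loss of mesenchymal Wnt5a changed Hox levels at E11.5. Of the 14 Hox genes tested, 0 passed the adjusted threshold, where 0.0136% of all 14663 genes did in edgeR. DESeq2 also called 0 of the 14, with 0.273% of all genes called. At the study's thresholds 2 were higher in the libraries labelled mutant, Hoxb5 and Hoxc5, where 3.72% of all genes passed in either direction. The median log2 fold change was 0.34 over the 14 Hox genes, with 13 higher and 1 lower, and -0.02 over all genes tested.

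Hoxb5, a group 5 gene with expression in foregut mesenchyme, stood at 5.97, 13.8, 16.02, 13.8 and 15.7 CPM in controls 7, 13, 16, 17 and 18. The mutants 7, 13, 17 and 18 stood at 19.7, 26.9, 32.6 and 14.9 CPM. Mutants 7, 13 and 17 were above every control, while mutant 18 lay among the controls. The means were 13.1 ± 4.09 and 23.6 ± 7.81 CPM, with a log2 fold change of 0.85 ± 0.31 (SE), an unadjusted p of 0.0184 and an adjusted p of 0.9996 in edgeR.

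Hoxc5, the group 5 gene of cluster C, stood at 3.36, 6.03, 9.49, 11.7 and 6.87 CPM in the controls and at 13.7, 30.5, 25.7 and 6.38 CPM in the mutants, in the same order. Again the mutants 7, 13 and 17 exceeded all controls and mutant 18 did not. The means were 7.48 ± 3.20 and 19.1 ± 11.02 CPM, and the log2 fold change was 1.35 ± 0.45 (unadjusted p = 0.0121, edgeR adjusted p = 0.9996). Hoxa5, the third paralog of this group, stood at 13.54, 12.3, 4.36, 10.96 and 11.6 CPM in controls and 12.8, 7.58, 9.29 and 14.9 CPM in mutants, and its groups overlapped over most of their range.

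Hoxb1, which in the embryo is best known from the hindbrain and early foregut, stood at 0.251, 1.10, 3.73, 1.86 and 2.02 CPM in controls and 2.79, 7.42, 6.63 and 0.798 CPM in mutants. Mutants 13 and 17 were highest and mutant 18 was lower than 4 of the 5 controls. Its log2 fold change of 1.34 ± 0.72 did not pass the study's thresholds (unadjusted p = 0.0871). These 2 mutant libraries were also the 2 highest of the 9 E11.5 libraries for Hoxb6 (3.65 and 3.58 CPM against 0.422 to 2.18 CPM in the other 7). The same held for Hoxb5os, the RNA opposite Hoxb5 with which it shares exon bases (5.29 and 4.78 CPM against 0.552 to 2.69 CPM). All 39 members and Hoxb5os were scanned for genes highest in these 2 libraries, so the pattern was selected from the same values. Other members differed, with Hoxb2 at 8.13 CPM in mutant 13, the lowest of the 9 libraries, and Hoxc4 at 1.63 CPM in mutant 17. The share of all genes with this pattern was not counted.

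**Figure D3:**
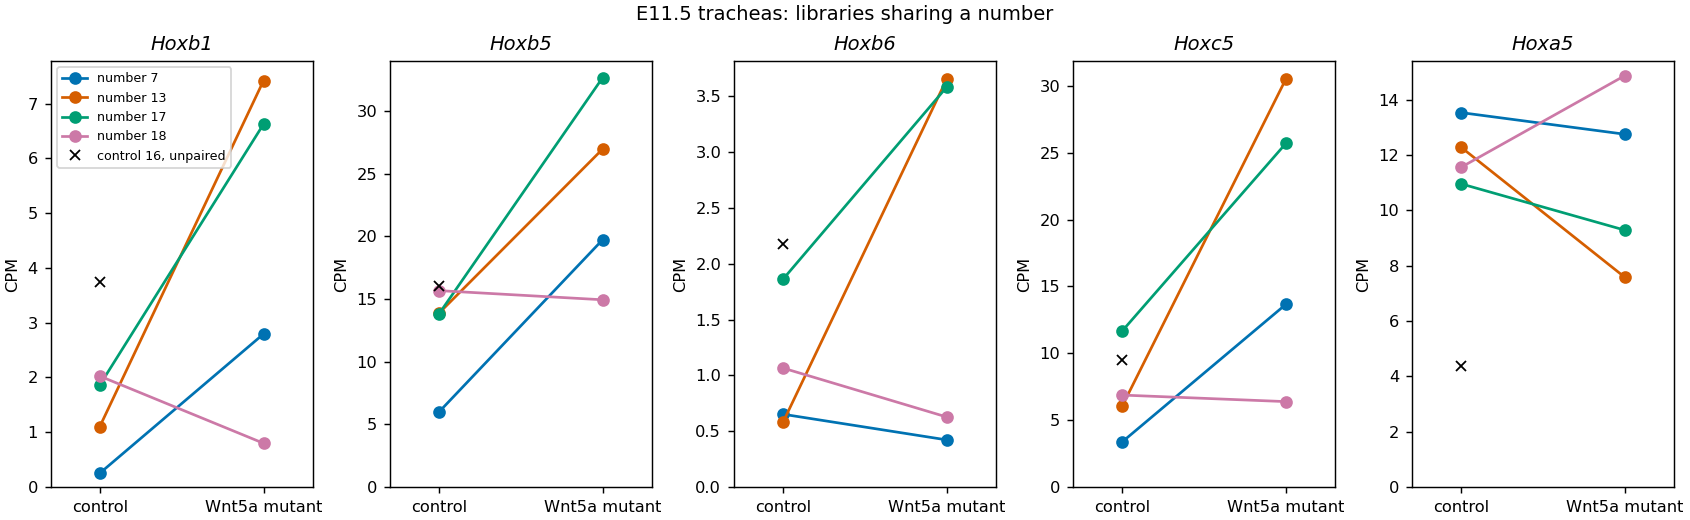
CPM of Hoxb1, Hoxb5, Hoxb6, Hoxc5 and Hoxa5 in the 4 pairs of E11.5 libraries that share a number, joined by lines, with the unpaired control 16 as a cross. Hoxb5 and Hoxc5 climb in the pairs 7, 13 and 17 and are level in pair 18, from 15.7 to 14.9 CPM and from 6.87 to 6.38 CPM.

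The control and mutant libraries numbered 7 correlated in their deviations from the group means (r = 0.619). The other numbers did so weakly (r = 0.127 to 0.208), and mutant 17 correlated better with control 16 (r = 0.256). With the number as a block, which leaves out control 16, 3 of 13 Hox genes passed the study's thresholds, where 2.98% of all genes did. The same libraries without the block also gave 3, with 2.33% of all genes, so the added call went with leaving out control 16. Hoxb5 had a blocked log2 fold change of 0.97 ± 0.28 (edgeR adjusted p = 0.648), Hoxc5 1.37 ± 0.37 (edgeR adjusted p = 0.592) and Hoxb1 1.71 ± 0.70 (edgeR adjusted p = 0.960). Mutant to control ratios within the pairs 7, 13, 17 and 18 were 3.30, 1.95, 2.37 and 0.953 for Hoxb5 and 4.06, 5.06, 2.20 and 0.928 for Hoxc5. Control 7 had the lowest Hoxb5 and Hoxc5 of the controls, so pair 7 has a high ratio with the lowest of the 3 raised mutant levels.

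The remaining named members passed neither threshold at E11.5. Hoxa2, which patterns the hindbrain and pharyngeal arches, was 21.7 ± 6.98 CPM in controls (11.51 to 28.8 CPM) and 26.6 ± 5.63 CPM in mutants (18.9 to 32.2 CPM). Hoxa4 was 8.05 ± 1.57 and 10.4 ± 1.32 CPM, Hoxa3 5.23 ± 1.37 and 6.56 ± 1.08 CPM, and Hoxb2 19.9 ± 7.78 and 24.0 ± 11.2 CPM. Each of these pairs of groups overlapped. Within the pairs 7, 13, 17 and 18 the mutant was higher in all 4 for Hoxa4 (ratios 1.64, 1.15, 1.19 and 1.37) and for Hoxa3 (ratios 1.62, 1.17, 1.18 and 1.02). Hoxd3 stood at 3.51, 9.04, 9.33, 11.7 and 10.1 CPM in controls and 12.3, 12.2, 10.97 and 10.8 CPM in mutants, with a log2 fold change of 0.41 ± 0.30 (unadjusted p = 0.201). Hoxb3 (6.83 ± 0.990 and 8.49 ± 2.28 CPM) and Hoxb4 (5.34 ± 1.18 and 5.29 ± 1.45 CPM) also overlapped.

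Other cell markers moved with this comparison. The 6 skeletal muscle and somite markers summed to 22.4 to 41.2 CPM in controls and 91.1 to 136 CPM in mutants, without overlap, and Myog and Myod1 were the only 2 genes of the table past the adjusted threshold. The 6 epithelial markers summed to 207 to 297 CPM in controls and to 222 to 505 CPM in mutants, with mutant 17 highest, and the neural markers were also highest in mutant 17 at 370 CPM. Their part in the Hoxb5 and Hoxc5 values was not tested.

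The next comparison asked how Hox levels differ between the E13.5 populations. Of 10 Hox genes tested between epithelium and mesenchyme (the mean of muscle and chondroblasts), 0 passed the adjusted threshold in edgeR, where 5.14% of all 13687 genes did. At the study's thresholds 5 were lower in epithelium, Hoxa2, Hoxa3, Hoxa4, Hoxa5 and Hoxd3, where 18.8% of all genes passed, and the same number had an unadjusted p under 0.05. The median log2 fold change was -1.71 over the 10 Hox genes and -0.02 over all genes. DESeq2 called 6 of the 10 at an adjusted p under 0.05, all lower, which adds Hoxb5 to the 5, and 14.9% of all genes. A single fit over all 18 libraries called 7 of 14, and 25.4% of all genes, with Hoxb1 higher in epithelium as the 7th.

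Hoxa5 stood at 4.26 and 7.81 CPM in epithelium, 16.8 and 64.3 CPM in muscle and 23.1 and 106 CPM in chondroblasts, the earlier library first in each pair here and below. Both epithelial libraries were below all 4 mesenchymal ones, and the later library was higher in every population. The log2 fold change of epithelium against mesenchyme was -3.07 ± 0.92 (unadjusted p = 0.0140, edgeR adjusted p = 0.128). Hoxa4 stood at 2.78 and 0.847 CPM in epithelium, 10.5 and 20.1 CPM in muscle and 20.2 and 15.98 CPM in chondroblasts, again without overlap (log2 fold change -3.17 ± 0.94, unadjusted p = 0.0132, edgeR adjusted p = 0.124).

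Hoxa2 stood at 10.3 and 21.03 CPM in epithelium, 28.2 and 80.7 CPM in muscle and 36.3 and 63.0 CPM in chondroblasts. Hoxa3 stood at 5.37 and 5.99 CPM in epithelium, 13.01 and 24.9 CPM in muscle and 21.04 and 15.7 CPM in chondroblasts. For both genes the epithelial libraries were the lowest of the 6. Their log2 fold changes were -1.72 ± 0.61 and -1.70 ± 0.67 (edgeR adjusted p = 0.188 and 0.229).

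Hoxd3 had 3 counts in the earlier and 0 in the later epithelium, against 0.594 and 9.51 CPM in muscle and 2.53 and 16.95 CPM in chondroblasts. The mesenchymal mean of 7.40 CPM was 89.3 times the epithelial level, with a 95% exact Poisson interval of 30.6 to 433 that covers the counting error of those 3 counts only (edgeR adjusted p = 0.190). The later mesenchymal libraries were 16.01 and 6.70 times the earlier ones in muscle and chondroblasts. Date, genotype and other cells in the sort cannot be told apart there.

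Of the 9 named members tested, Hoxb2 alone had a positive fold change in epithelium. Hoxb2, a hindbrain and neural crest gene, stood at 21.3 and 80.2 CPM in epithelium, 58.9 and 18.5 CPM in muscle and 7.99 and 22.6 CPM in chondroblasts. The highest library of all 6 was thus epithelial, and the populations overlapped (log2 fold change 1.07 ± 0.74, edgeR adjusted p = 0.481). Hoxb5 stood at 2.87 and 1.95 CPM in epithelium, 13.49 and 14.7 CPM in muscle and 6.42 and 5.75 CPM in chondroblasts. It varied less between the dates than Hoxa2 and Hoxa5, with later to earlier ratios of 0.680, 1.09 and 0.895. Its 3 populations did not overlap, and epithelium against mesenchyme gave -1.92 ± 0.88 (unadjusted p = 0.0695, edgeR adjusted p = 0.289). Hoxb3 (4.36 and 4.95, 10.5 and 10.2, 6.42 and 3.51 CPM) and Hoxb4 (3.16 and 5.27, 8.97 and 7.12, 3.59 and 6.20 CPM) were highest in muscle.

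**Figure D4:**
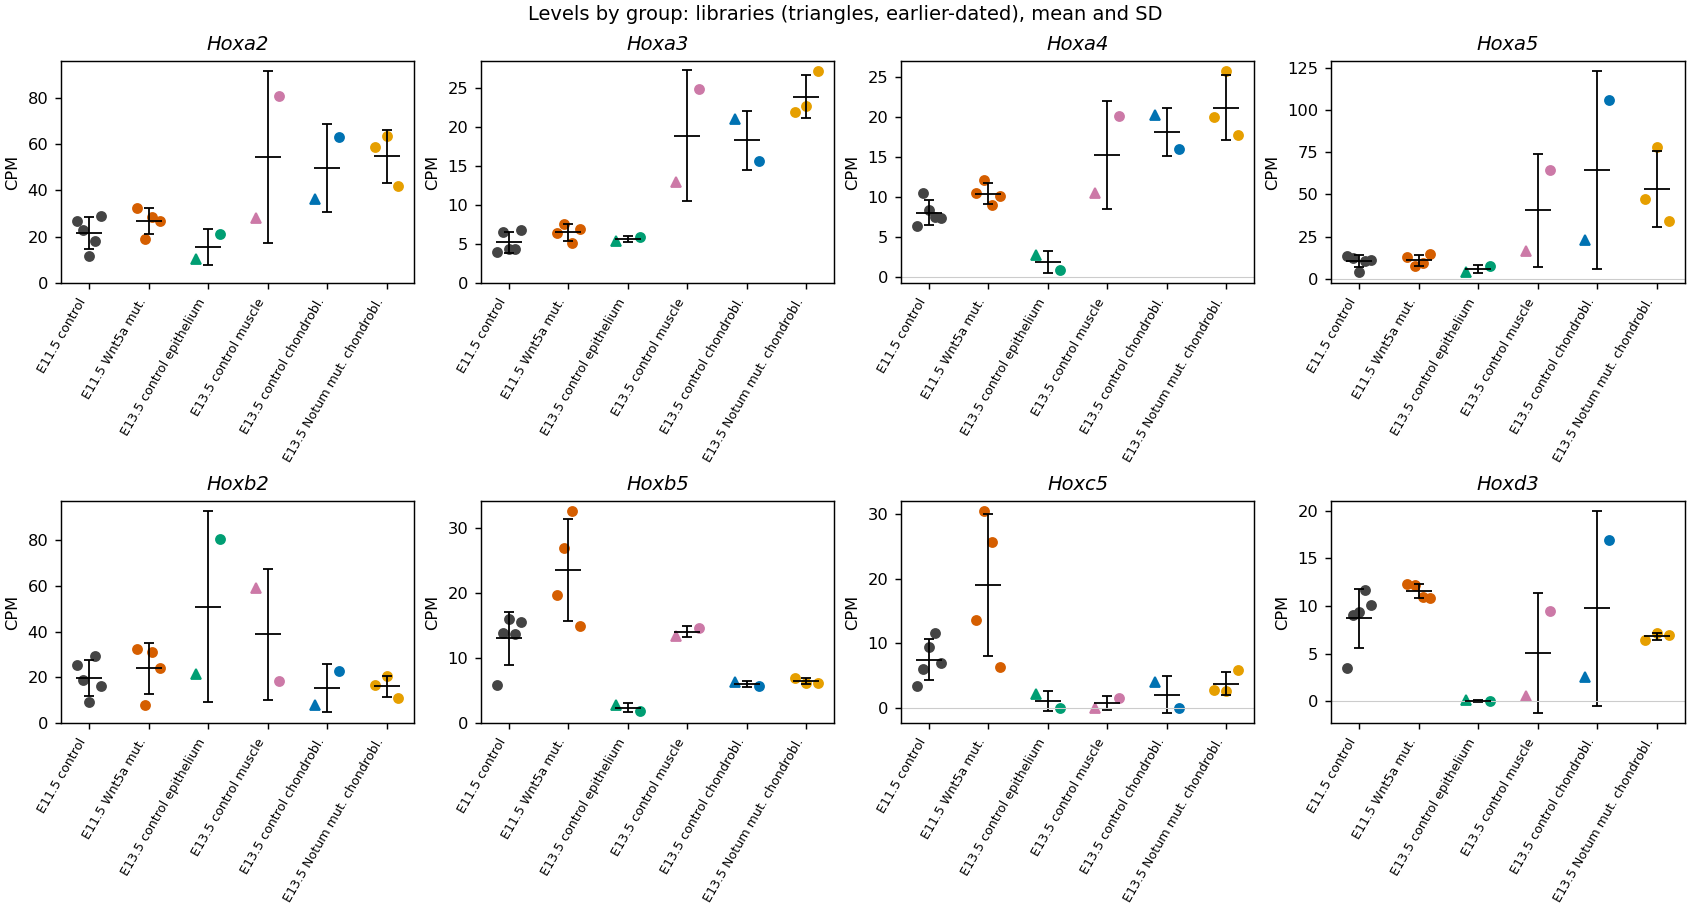
CPM of 8 Hox genes in the 6 groups, with each library as a point, earlier-dated libraries as triangles, and the mean and SD as bars. Epithelium lies lowest for Hoxa2, Hoxa4, Hoxa5, Hoxb5 and Hoxd3 and not for Hoxb2, and Hoxb5 and Hoxc5 are raised in 3 of 4 Wnt5a mutants.

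Some members had counts in 1 of the 2 libraries of a population and none in the other. Hoxb1 stood at 2.40 CPM in the earlier epithelium and at 0 in the later. The thyroid marker Pax8 was also higher in the earlier epithelium, while the thyroid marker Tg was not. Hoxc5 stood at 2.11 CPM in the earlier epithelium, 1.51 CPM in the later muscle and 4.05 CPM in the earlier chondroblasts, and had no count in the other library of each population. Among the 11 named members, 2 were higher in the later library of all 3 populations, Hoxa2 (ratios 2.05, 2.86 and 1.73) and Hoxa5 (ratios 1.83, 3.83 and 4.59), and 0 were lower in all 3. With the date as a block, 3 of the 5 genes past the study's thresholds stayed past them, Hoxa2, Hoxa4 and Hoxa5, and the adjusted p of Hoxa5 was 0.0512 in edgeR. Leaving out the later chondroblasts, the earlier epithelium or the later muscle each left 2 Hox genes past the study's thresholds, where 13.8%, 30.4% and 15.0% of all genes passed.

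Between chondroblasts and muscle, 0 of 10 Hox genes passed either threshold in edgeR, 0 had an unadjusted p under 0.05, and DESeq2 called 0. The background was 0.132% of all genes at the adjusted and 5.47% at the study's thresholds. The median log2 fold change was -0.10 over the 10 Hox genes and 0.00 over all genes. Hoxb5 had a log2 fold change of -1.22 ± 0.94 (chondroblasts lower, unadjusted p = 0.238), Hoxb2 of -1.35 ± 0.90 and Hoxa5 of 0.66 ± 0.90, which turned to -0.84 without the later chondroblasts. In the single fit over all 18 libraries, where 15.6% of all genes passed the study's thresholds, Hoxb5 and Hoxb3 did so and were lower in chondroblasts, and neither passed the adjustment. With 2 libraries a side and standard errors of 0.90 to 0.94 for these genes, differences as large as that of Hoxb5 could go uncalled.

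E13.5 control chondroblasts were then set beside E11.5 control tracheas. Sorted cells of 1 type are here compared with whole tissue, so stage, cell type and handling cannot be told apart. Of 14 Hox genes tested, 4 passed the adjusted threshold in edgeR, Hoxa3, Hoxa4 and Hoxa5 higher and Hoxb1 lower, where 12.5% of all 14728 genes passed. At the study's thresholds 6 passed, with Hoxa2 higher and Hoxb5 lower in addition, where 26.1% of all genes passed. The median log2 fold change was -0.42 over the 14 Hox genes, with or without Hoxb1 set at its bound, and -0.05 over all genes.

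Hoxa3, which acts in pharyngeal and neck structures, rose from 5.23 ± 1.37 CPM (4.01 to 6.87 CPM) to 21.04 and 15.7 CPM, without overlap. Its log2 fold change was 1.81 ± 0.33 (edgeR adjusted p = 0.0119), and it stayed past the threshold under every alternative tried. Hoxa4 rose from 8.05 ± 1.57 CPM (6.37 to 10.5 CPM) to 20.2 and 15.98 CPM (log2 fold change 1.17 ± 0.29, edgeR adjusted p = 0.0337), with adjusted p-values of 0.00302 to 0.0903 over the alternatives. Hoxa5 rose from 10.5 ± 3.59 CPM (4.36 to 13.54 CPM) to 23.1 and 106 CPM, with a log2 fold change of 2.59 ± 0.52 (edgeR adjusted p = 0.0160). Without the later chondroblasts the value for Hoxa5 was 1.11 and its adjusted p 0.204. Hoxa2 had a log2 fold change of 1.19 ± 0.34 (edgeR adjusted p = 0.0552).

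Hoxb1 had no count in either chondroblast library and was at least 9.55-fold lower there than its mean of 1.79 CPM in E11.5 controls, taking 3 counts in each chondroblast library as the floor (edgeR adjusted p = 0.0365). Hoxb5 was 13.1 ± 4.09 CPM at E11.5 and 6.42 and 5.75 CPM in chondroblasts, with control 7 at 5.97 CPM inside the chondroblast range (log2 fold change -1.10 ± 0.43, edgeR adjusted p = 0.124). Leaving out the later chondroblasts left 1 of the 4 adjusted calls, Hoxa3, with 5.51% of all genes called, while leaving out the earlier gave 7, with 22.4%. Without control 17 or without control 18 there were 2, with 6.06% and 8.86% of all genes called. Markers of the tissue moved with this comparison, since epithelial markers summed to 207 to 297 CPM in E11.5 controls and 31.2 and 32.3 CPM in chondroblasts, and cartilage markers to 220 to 695 CPM and 2114 and 2055 CPM. Their part in the Hox values was not tested.

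The last comparison asked whether loss of Notum changed Hox levels in chondroblasts at E13.5. Of 12 Hox genes tested, 0 passed either threshold in edgeR and 0 had an unadjusted p under 0.05, and DESeq2 called 0. The background was 0% of all 14120 genes at the adjusted threshold and 8.41% at the study's thresholds. The median log2 fold change was 0.13 over the Hox genes, with 9 higher and 3 lower, and 0.02 over all genes.

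The 2 control libraries lay far apart for several members. Hoxa5 stood at 47.2, 78.0 and 34.1 CPM in mutants A, B and C, between the earlier control at 23.1 CPM and the later at 106 CPM. Hoxd3 stood at 6.42, 7.15 and 6.92 CPM, between 2.53 and 16.95 CPM. Hoxc5 stood at 2.78, 2.63 and 5.85 CPM in the mutants, against 4.05 CPM and no count in the controls, and Hoxc4 at 2.50, 1.95 and 3.46 CPM against 1.67 and 0.224 CPM. For Hoxa5, Hoxd3 and Hoxc5 the sign of the change depended on the control chosen. The same held for Hoxa2, Hoxb2 and Hoxb4. Log2 ratios of the mutant mean to the later and the earlier control were -0.20 and 0.59 for Hoxa2. They were -0.50 and 1.00 for Hoxb2, and -0.29 and 0.49 for Hoxb4.

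With the date as a block, which leaves the later control as the only control that bears on the mutants, 3 of 12 Hox genes passed the adjusted threshold, where 18.4% of all genes did. Hoxc4 had a log2 fold change of 3.53 ± 0.92 (edgeR adjusted p = 0.0423), Hoxd3 -1.30 ± 0.35 (adjusted p = 0.0447), and Hoxc5 was at least 16.7-fold higher than a floor of 3 counts in that control (adjusted p = 0.0183). The value of Hoxc4 rests on 3 counts in that control, which is the floor itself. At the study's thresholds 5 passed, where 28.7% of all genes did, with Hoxa3 at 0.62 and Hoxa5 at -0.99 in addition. Without the later control, Hoxd3 had the opposite sign at 1.44, as had Hoxa5 at 1.21, and Hoxc5 was at -0.09. In that fit the lone control is assumed to vary like the mutants. Hoxa3 was 21.99, 22.7 and 27.2 CPM in the mutants and 21.04 and 15.7 CPM in the controls, so every mutant exceeded both controls, with a log2 fold change of 0.41 ± 0.24 (edgeR adjusted p = 0.523). Globin and Ptprc counts summed to 2789 to 3692 CPM in the mutants, between the 33694 and 1435 CPM of the controls. The endothelial and the skeletal muscle and somite markers also overlapped between mutants and controls. The other marker sums did not. Cartilage markers were at 2516 to 3258 against 2055 and 2114 CPM, and lung bud markers at 276 to 439 against 250 and 256 CPM. Within the lung bud list Wnt2 went the other way, at 14.6, 14.5 and 8.92 CPM in mutants A, B and C against 24.0 and 24.8 CPM. Smooth muscle markers were at 68.7 to 96.7 against 54.7 and 59.7 CPM, and epithelial markers at 17.03 to 26.1 against 31.2 and 32.3 CPM. The epithelial marker Epcam overlapped, at 0.819, 0.924 and 0.439 CPM in mutants A, B and C against 0.658 and 0.224 CPM. Neural markers were at 215 to 282 against 143 and 211 CPM. Heart markers were at 7.10 to 34.1 against 0.961 and 5.08 CPM, and thyroid and parathyroid markers at 4.23 to 11.8 against 0.822 and 2.58 CPM. The share of genes that set 3 libraries apart from 2 in this way was not counted. Their part in these values was not tested.

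**Figure D5:**
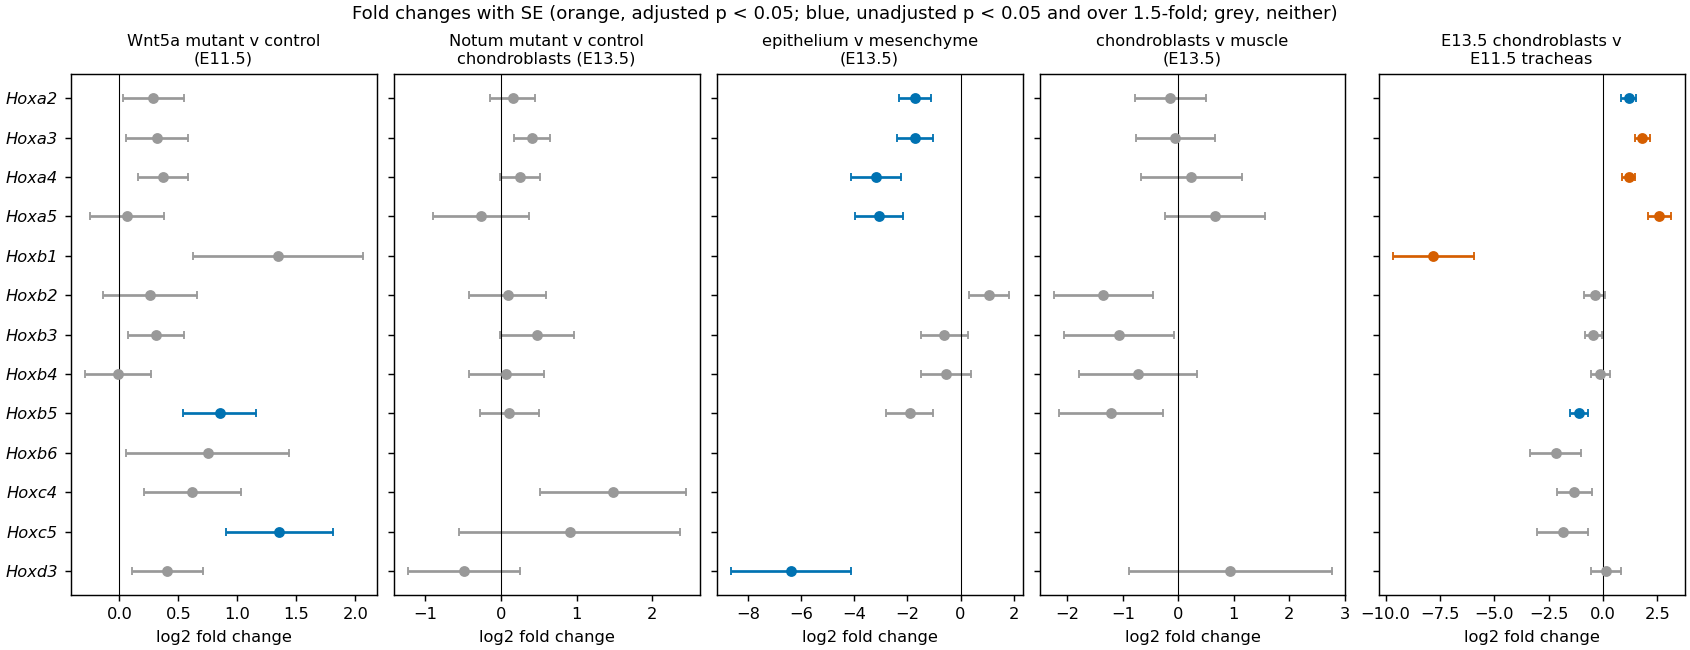
Log2 fold change with its standard error for Hox genes tested in the 5 comparisons, in cluster and paralog order, with a separate x axis for each panel. Orange points passed an adjusted p under 0.05, blue points the study's thresholds, and grey points neither. The orange points, Hoxa3, Hoxa4, Hoxa5 and Hoxb1, all lie in the comparison of chondroblasts with E11.5 tracheas.

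Several cofactors of Hox proteins were lower in epithelium. Of the 9 Pbx, Meis and Pknox genes tested, 2 passed the adjusted threshold between epithelium and mesenchyme and 5 the study's thresholds, all lower in epithelium. Of all genes, 5.14% and 18.8% passed these thresholds. Meis1 stood at 94.3 ± 10.9 CPM in epithelium, 369 ± 72.5 in muscle and 584 ± 38.7 in chondroblasts (log2 fold change -2.29 ± 0.20, edgeR adjusted p = 0.0034). Pbx3 had a log2 fold change of -2.85 ± 0.68 (edgeR adjusted p = 0.0694). The median over the 9 cofactors was -1.96. In the Wnt5a comparison 0 of the 9 passed either threshold, with a median of 0.05. In the Notum comparison 0 passed either, with a median of 0.49.

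Of 20 regulators of Hox clusters, which comprise Cdx factors, retinoic acid genes and chromatin regulators, 16 could be tested in each comparison. In the Wnt5a comparison 1 passed the study's thresholds, where 3.72% of all genes did. Aldh1a2, the enzyme that makes retinoic acid in mesenchyme, was 189, 342, 493, 453 and 264 CPM in controls and 91.8, 179, 260 and 152 CPM in mutants, lower in the mutant of every pair (log2 fold change -1.04 ± 0.33, edgeR adjusted p = 0.9996). In the Notum comparison 3 passed the study's thresholds, all higher, where 8.41% of all genes passed. Among the 3 were Kmt2a, the methyltransferase that keeps Hox genes active (0.85 ± 0.17, edgeR adjusted p = 0.243), and Kdm6b, a demethylase of the Polycomb mark (1.09 ± 0.19, adjusted p = 0.200). Between epithelium and mesenchyme 6 passed the study's thresholds, 1 higher and 5 lower, where 18.8% of all genes passed. Between chondroblasts and E11.5 tracheas Rarg was higher (2.03 ± 0.46, edgeR adjusted p = 0.0260) and Aldh1a2 lower (-2.48 ± 0.47, adjusted p = 0.0127). No other regulator passed the adjustment, which 12.5% of all genes passed. Without the later chondroblasts neither passed (adjusted p = 0.170 and 0.0767 in edgeR), and Rarg also missed the threshold without control 13 or control 17 (adjusted p = 0.0533 and 0.0509).

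Genes next to the clusters were followed as a measure of regional change. Of 9 neighbours, 7 were tested in the Wnt5a comparison and 6 in the Notum comparison, and 0 passed either threshold in these. Mtx2, beside the Hoxd cluster, was lower in chondroblasts than in E11.5 tracheas (61.3 ± 24.5 against 169 ± 42.6 CPM, log2 fold change -1.47 ± 0.32, edgeR adjusted p = 0.0219). Mtx2 missed the threshold without the earlier chondroblasts, control 13 or control 17 (edgeR adjusted p = 0.0606, 0.0508 and 0.0557). Of 16 RNAs transcribed from within the clusters, 2 to 4 could be tested in each comparison. Hotairm1, a long non-coding RNA of the Hoxa cluster, passed the study's thresholds between chondroblasts and E11.5 tracheas at 3.19 and 6.95 CPM against 1.70 to 2.80 CPM (log2 fold change 1.32 ± 0.50, edgeR adjusted p = 0.116).

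RefSeq promoters of 300 bases, from 250 before to 50 after the start, were at hand for 22 of the 39 members. They were searched on both strands for TGATNNAT, a motif bound by Hox and Pbx proteins together, with no other motif searched. It was found in the promoters of 4 members, Hoxa2, Hoxb1, Hoxb8 and Hoxd11, which is 16.7% of 24 Hox promoters, and in 8.85% of all 32851 promoters. The promoters of Hoxb1 and Hoxa2 are shown because Hoxb1 is the textbook case of a Hox gene that regulates itself through such sites and because both genes are members described above. Capitals mark the motif, which in Hoxa2 lies on the reverse strand.
Hoxb1, GRCm38.p6 chr11:96365508-96365807, plus strand: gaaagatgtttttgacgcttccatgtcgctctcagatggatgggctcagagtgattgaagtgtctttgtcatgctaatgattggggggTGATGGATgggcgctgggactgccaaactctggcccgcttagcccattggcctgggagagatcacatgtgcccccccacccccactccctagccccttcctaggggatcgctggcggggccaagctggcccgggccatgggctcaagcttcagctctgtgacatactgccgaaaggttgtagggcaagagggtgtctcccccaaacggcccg
Hoxa2, GRCm38.p6 chr6:52164782-52165081, minus strand: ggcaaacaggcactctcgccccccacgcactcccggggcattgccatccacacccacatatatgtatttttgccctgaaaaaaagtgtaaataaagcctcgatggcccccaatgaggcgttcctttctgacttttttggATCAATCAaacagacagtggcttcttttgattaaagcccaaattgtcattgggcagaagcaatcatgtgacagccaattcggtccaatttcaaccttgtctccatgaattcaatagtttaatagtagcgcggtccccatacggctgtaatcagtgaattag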

How the data were processed

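RNA of 5 pooled tracheas per sample was amplified by a SMART-Seq v4 kit for very small inputs, which adds no molecular identifiers and does not mark strand. The authors deposited expected counts, estimates that need not be whole, in 1 table of 47248 entries and 22 columns. The submitters' processing notes name mm10, Partek and limma without versions, and the counting tool is not given in the sources used here. Of the 22 columns, 18 matched a group by name and 4 matched none and were not used. Entries sharing a symbol were summed and rounded.

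Genes with at least 1 CPM in over 50% of the libraries of a group were tested with edgeR 4.0.16 (quasi-likelihood, TMM, two-sided, Benjamini-Hochberg over all genes) in R 4.3.3. The standard error of a fold change is its size over the square root of F. DESeq2 1.42.0 and other scalings and filters were tried. Scripts were tested on simulated data. A floor is 3 counts per library and covers counting error only. Values in every library were given for members with a group mean of at least 5 CPM or past the study's thresholds. The members and lists were chosen with earlier results of these data known. E11.5 libraries sharing a number in their column names correlated in their deviations from the group means (r = 0.619, 0.208, 0.127 and 0.129) and were taken as pairs, since every value is over 0.1. The pairing is a reading of the column names, and mutant 17 correlated better with control 16 (r = 0.256) than with its own number. No 2 libraries of a group agreed within sampling noise. Positions are from GENCODE M21 (GRCm38). Some genes and sequences are not reported here.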

Additional observations from a re-analysis of the deposited data

Results flagged for a closer look

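Of 30 sets of E11.5 values examined, 3 held a library far from the others of its group, and chance alone flags about 1 in 20 groups. Hoxa5 stood at 4.36 CPM in control 16, against 10.96 to 13.54 CPM in the other controls. Hoxb5 stood at 5.97 CPM in control 7, against 13.8 to 16.02 CPM in the other controls. Hoxb3 stood at 11.9 CPM in mutant 13, against 7.01 to 7.58 CPM in the other mutants.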

How the results depend on the processing

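Adjusted calls changed as follows. Between epithelium and mesenchyme, 0 of 10 Hox genes became 7 of 14 in 1 fit of all libraries, 6 of 10 in DESeq2 and 3 of 29 without a filter on low counts, while the share of all genes called went from 5.14% to 25.4%, 14.9% and 9.57%. Between chondroblasts and E11.5 tracheas, 4 became 2 in 1 fit (10.3% of all genes). Leaving out each E11.5 control gave 2 to 5 there (6.06% to 12.9% of all genes). For Notum, 0 became 3 with the date as replicate block (18.4% of all genes), and it stayed at 0 on leaving out each mutant (0% of all genes). Counts at the study's thresholds are given with the share of all genes in brackets. For Wnt5a, 2 of 14 Hox genes (3.72%) became 1 of 14 in 1 fit (1.95%) and 4 of 39 without a filter (6.03%). For Notum, 0 of 12 (8.41%) became 1 of 33 without a filter (7.03%) and 5 of 12 with the date block (28.7%). It stayed at 0 on leaving out each mutant (4.86% to 7.5%). Between epithelium and mesenchyme, 5 of 10 (18.8%) became 3 of 10 with the date block (17.6%) and 7 of 14 in 1 fit (34.8%). Between chondroblasts and muscle, 0 of 10 (5.47%) became 3 of 14 in 1 fit (15.6%) and 1 of 29 without a filter (5.65%). Between chondroblasts and E11.5 tracheas, 6 of 14 (26.1%) became 15 of 37 without a filter (22.9%). Leaving out each E11.5 control gave 5 or 6 there (21.7% to 27.1%). Leaving out 1 library of a sorted control leaves 1 in that group, and those counts are left out here. The cause of these changes was not tested. Fold changes of chosen genes were followed on leaving out each library. Signs turned for Hoxa5 (-0.98 to 1.21), Hoxc5 (-0.094 to 9.17) and Hoxd3 (-1.30 to 1.44) in the Notum comparison. They also turned for Hoxa5 between chondroblasts and muscle (-0.84 to 1.93) and Hoxb2 in epithelium (-0.17 to 1.72). Hoxa2, Hoxb2 and Hoxb4 were not among the genes followed for Notum. With the number as replicate block, Hoxb5 was at 0.97 and Hoxc5 at 1.37 in the Wnt5a comparison. Deviations of sorted populations sharing a date correlated at -0.0049, 0.121 and 0.113, so the dates were not taken as pairs. Depth limits the members under the floor of 3 counts, and 2 libraries in each sorted control limit every E13.5 comparison.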
